A study of Mus musculus with 12 samples.

Results

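The DNA replication and S phase genes followed here were 39 genes that act in or around the copying of the genome, from origin licensing to chromatin assembly behind the fork. They were taken by name, as all probes carrying the name of one of the 39, and each gene was represented by the probe that was brightest in EGFP control RNA. Of the 39 genes, 38 were found, among 27962 gene names on the array, with 58 probes in all. 16 of the 38 genes had more than 1 probe. Rfc1, the largest subunit of the clamp loader, had no probe of that name. A probe with its synonym Recc1 is given separately below.

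RNA came from E14, a line of mouse embryonic stem cells, and was measured on Agilent arrays. Cells of every group took up esiRNA at 0.33 ng/µl with Lipofectamine 2000 for 72 hr. An esiRNA is a mixture of short double-stranded RNAs made by digesting a long one, and it knocks down the matching transcript. The groups were knockdown of p400 (gene Ep400), the ATPase of the Tip60-p400 chromatin complex, knockdown of Tip60 (gene Htatip on the array), its histone acetyltransferase, and control cells given esiRNA against EGFP, a reporter gene. p400 knockdown was set against EGFP RNA on 4 two-colour arrays with the dyes swapped, and Tip60 knockdown and EGFP control had 4 single-colour arrays each. The submitters call the replicates biological and left out Tip60 replicate 3 as an outlier, so the fit used 3 Tip60 and 4 EGFP arrays. All groups are 1 cell line, and each sample was 1 well of cells.

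Replication origins are licensed in G1, when the origin recognition complex with Cdc6 and Cdt1 loads the ring of Mcm2 to Mcm7 onto DNA. At the start of S phase the kinases Cdk2 and Cdc7 turn the ring into an active helicase, and DNA polymerases, the sliding clamp and its loader follow it. Transcription of many of these genes is driven by E2F factors, which the retinoblastoma proteins hold back until cyclin-dependent kinases release them. Embryonic stem cells are known for a short G1 and for spending most of their cycle in S phase.

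Because E2F factors are the best known regulators of this group, the upstream sequence of each member was searched for E2F letters. RefSeq promoter sequences (GRCm38.p6) were found for 32 of the 38 genes, including 2 by a synonym. Ccne2, Gmnn, Mcm4, Pole, Prim2 and Rfc2 were not matched. The 250 bases upstream of each annotated start were searched on both strands for TTTCCCGC, TTTGGCGC, TTTGCCGC and TTTCGCGC, and a gene with several windows was counted if any held a match. A match was found in 6 of 32 members (18.75%), namely Cdc6, Mcm5, Mcm6, Mcm7, Pola1 and Rfc3, against 583 of all 27025 genes (2.16%). The 4 windows below are shown because they set side by side 2 helicase genes with matches, the only member lower in Tip60 knockdown, which also has one, and a member lower in p400 knockdown without one. Each is printed 5′ to 3′ on the strand of the gene, with the E2F letters in capitals.
Mcm5, chr8:75109259-75109508, plus strand: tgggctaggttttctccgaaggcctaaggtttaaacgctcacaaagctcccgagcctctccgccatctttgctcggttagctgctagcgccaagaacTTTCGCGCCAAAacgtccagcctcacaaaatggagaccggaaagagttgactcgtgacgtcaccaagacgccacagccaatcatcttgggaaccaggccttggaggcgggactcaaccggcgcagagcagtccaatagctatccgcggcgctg
Mcm6, chr1:128359706-128359955, minus strand: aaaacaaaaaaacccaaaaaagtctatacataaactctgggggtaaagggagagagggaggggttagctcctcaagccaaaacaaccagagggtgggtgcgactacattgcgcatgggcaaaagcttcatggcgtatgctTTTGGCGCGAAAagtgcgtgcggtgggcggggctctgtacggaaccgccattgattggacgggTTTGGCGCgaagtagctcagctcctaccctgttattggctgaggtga
Pola1, chrX:93632156-93632405, minus strand: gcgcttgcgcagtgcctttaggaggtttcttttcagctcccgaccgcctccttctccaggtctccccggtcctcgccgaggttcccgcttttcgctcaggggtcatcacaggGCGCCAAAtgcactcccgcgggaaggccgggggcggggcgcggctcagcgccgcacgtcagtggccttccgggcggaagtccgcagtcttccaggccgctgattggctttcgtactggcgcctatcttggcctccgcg
Rrm2, chr12:24708004-24708253, plus strand: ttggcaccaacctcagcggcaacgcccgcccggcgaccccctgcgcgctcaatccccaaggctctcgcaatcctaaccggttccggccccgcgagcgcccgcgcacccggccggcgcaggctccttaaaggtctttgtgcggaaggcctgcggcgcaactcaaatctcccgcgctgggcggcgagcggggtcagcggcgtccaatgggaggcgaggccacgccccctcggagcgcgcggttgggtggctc
In Mcm5 and in Mcm6, 2 matches on opposite strands overlap in a single palindrome-like run, and Mcm6 holds another nearer the start. None of the 11 matched members that passed the threshold in p400 knockdown held an E2F match, against 6 of the 21 that did not pass it. This contrast hangs on the threshold. Of the 6, Pola1 (log2 fold change -0.37, limma adjusted p = 0.0562) and Mcm7 (-0.20, adjusted p = 0.0650) just missed it. The others ran from -0.22 (Mcm5) to 0.096 (Mcm6). The CCAAT box, searched as CCAAT on both strands, was present in 18 of 32 members, against 10133 of 27025 genes (37.5%). The E-box CACGTG was present in 5 of 32, against 1854 of 27025 (6.86%). A match is only a run of letters in this window.

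The probes of these genes passed the checks of signal. All 38 representative probes were well above background on every array of the fits, and none was saturated. Ep400 was -0.58 ± 0.087 (log2 fold change ± SE) and Htatip -0.43 ± 0.081 in p400 knockdown, and Htatip was -1.49 ± 0.073 in Tip60 knockdown, where Ep400 was 0.17 ± 0.063. All 11 measured markers of embryonic stem cells were well above background on the 4 EGFP arrays. Their summed signal in p400 knockdown was 1.1, 0.717, 1.15 and 0.742 times that of EGFP on replicates 1 to 4. It was above EGFP where p400 RNA carried Cy5 (replicates 1 and 3) and below it where p400 RNA carried Cy3. On the 3 Tip60 arrays the sum ran from 597 to 617 times the 75th percentile, against 535 to 782 on EGFP arrays. Markers of other cell types moved as well. The summed signal of 10 endoderm markers was 1.32 to 1.59 times EGFP in p400 knockdown, and 2.67 to 2.89 on Tip60 against 2.19 to 2.36 on EGFP arrays, with Afp not well above background on any EGFP array. For 5 genes of the 2-cell-like state it was 6.01 to 11.2 times EGFP in p400 knockdown, and 130 to 135 on Tip60 against 30.5 to 35.1 on EGFP arrays, with Tdpoz1 not well above background on any EGFP array. For 11 fibroblast markers it was 0.855 to 1.11 times EGFP in p400 knockdown and 21.7 to 24.5 on Tip60 against 18.5 to 22.4 on EGFP arrays, and Col6a1, Postn, Lum and Dcn were not well above background on any EGFP array. By limma, in p400 knockdown 7 of 10 endoderm and 3 of 5 2-cell-like markers were higher and none lower, 4 of 7 tested fibroblast markers were higher and 1 lower, and of 11 embryonic stem cell markers none was higher and 4 were lower, where 20.2% of all genes were higher and 14.9% lower. In Tip60 knockdown 7 of 9, 3 of 4 and 2 of 7 of the first 3 lists were higher and none lower, and of the 11 stem cell markers 1 was higher and 2 were lower, where 15.1% of all genes were higher and 10.3% lower. The part of these other cells in the results below was not tested.

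The first comparison asks how p400 knockdown changes the replication genes. Both E-type cyclins and E2f1, which act at the entry into S phase, passed the threshold as higher, together with the RPA subunit Rpa2. Only the Ccne2 call held under all 13 alternative settings. The calls of E2f1, Ccne1 and Rpa2 were lost under 7, 8 and 6 of them. The E2f1 ratios also split by dye, and its second probe gave -0.023. Genes that fell were spread over licensing (Gmnn), origin firing (Cdc7 and Cdc45l), the polymerases (Pola2 and Pold1), the clamp loader (Rfc4), nucleotide supply (Rrm2 and Tyms) and chromatin assembly (Chaf1b). The calls of these lower genes were lost under 1 (Pola2) to 8 (Cdc45l) of the 13 alternatives. No subunit of the Mcm2 to Mcm7 ring passed the threshold. The changes were small, from -0.39 to 0.55 on the log2 scale. By limma with Benjamini-Hochberg adjusted p under 0.05 over all genes tested, 4 of 38 members were higher (10.5%) where 20.2% of all 18787 genes were, and 9 of 38 were lower (23.7%) where 14.9% of all genes were. The median log2 fold change of the members was -0.091, and that of all genes 0.0092. The arrays measured RNA of whole wells, so fewer cells of a cell cycle phase and less RNA per cell cannot be told apart.

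These counts depend on single arrays and on how the 2 dyes are scaled. They were 3 higher and 6 lower without p400 replicate 1, where 3265 and 2534 of 18329 genes were. Without replicate 2 they were 1 and 0, where 1949 and 1229 of 18311 genes were. Without replicate 3 they were 1 and 3, where 2825 and 2022 of 18478 genes were. Without replicate 4 they were 1 and 3, where 3007 and 1694 of 18121 genes were. In the main fit 3797 and 2794 of 18787 genes were. The members' median was -0.14 without replicate 2 and -0.050 without replicate 3. With each array centred on its median in place of loess, 1 of 38 members was higher and 29 lower. Of all 18787 genes, 2899 were then higher and 6729 lower. The median of all genes moved to -0.10 and that of the members to -0.42. Ccne2 was the single member still higher in each of these cases other than replicate 1 left out. With no dye term the member counts were 2 higher and 5 lower, where 3378 and 2472 of 18787 genes were. In 8 of 38 members the ratios of replicates 1 and 3 (p400 RNA in Cy5) both lay above those of replicates 2 and 4 (Cy3). In 12 of 38 they both lay below. This split by dye was not counted over all genes.

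**Figure D1:**
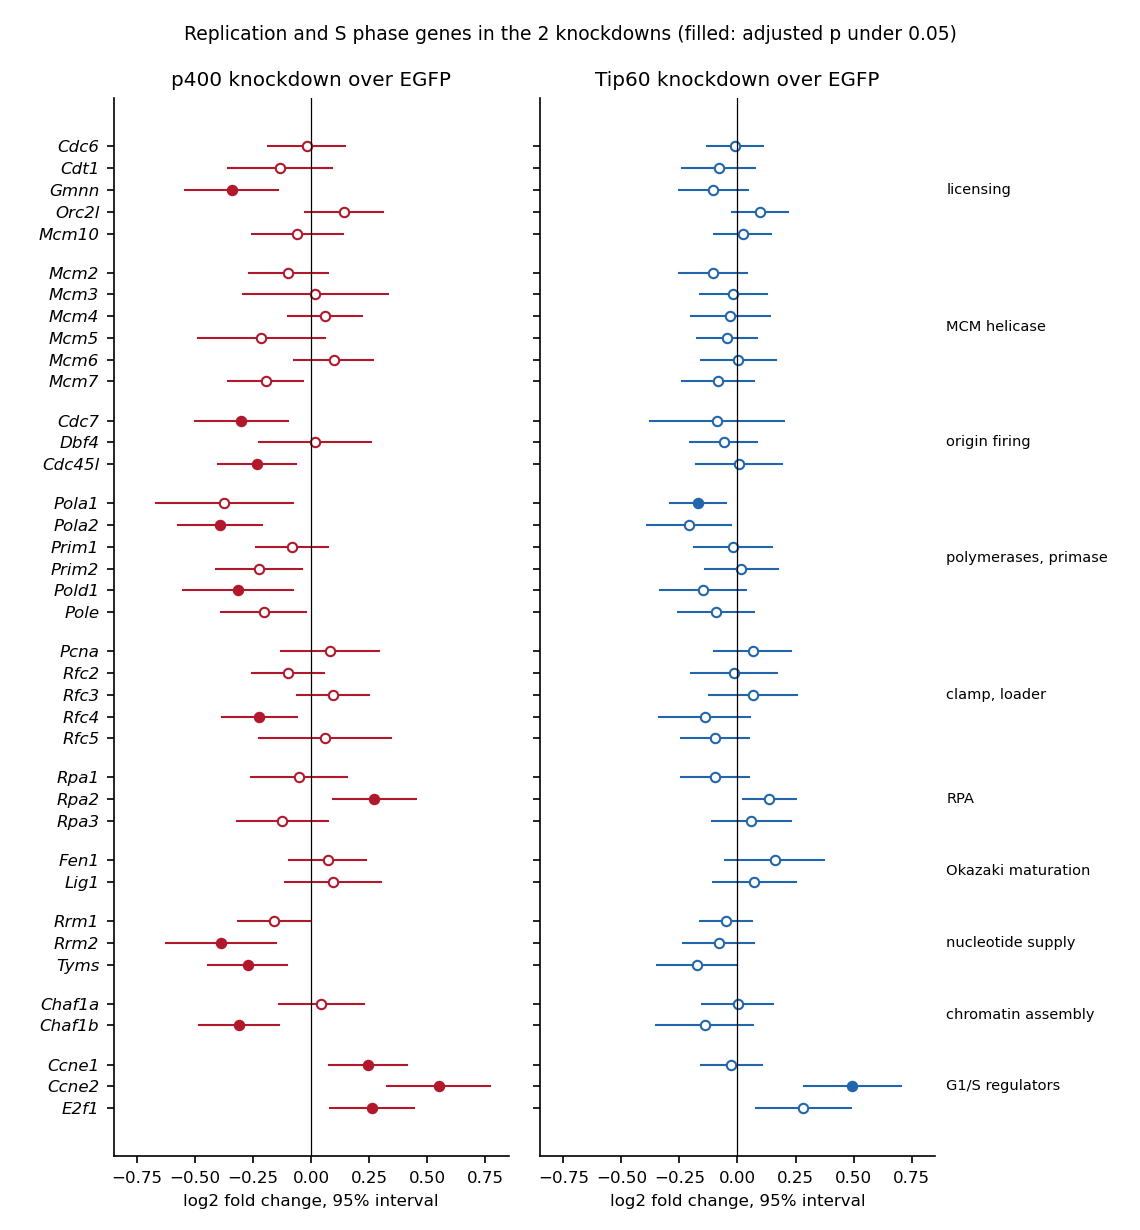
Log2 fold change over EGFP (horizontal axis) of the 38 replication and S phase genes in p400 knockdown (left) and Tip60 knockdown (right), in blocks by role, with points for the fitted value, bars for its 95% interval and filled points for an adjusted p under 0.05. In p400 knockdown 4 points are filled above 0 and 9 below, and in Tip60 knockdown 1 above (Ccne2) and 1 below (Pola1).

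The second comparison asks the same of Tip60 knockdown. Ccne2 rose and Pola1, the catalytic subunit of DNA polymerase alpha, fell, and the other 36 members did not pass the threshold. This was 1 of 38 higher (2.63%) where limma called 15.1% of all 17057 genes higher, and 1 of 38 lower (2.63%) where 10.3% of all genes were lower. At an unadjusted p under 0.05 there were 6 of 38 members, where 6349 of all 17057 genes were. The median log2 fold change was -0.028 for the members and 0.0060 for all genes, and the median size of the change without regard to sign was 0.081 for members and 0.155 for all genes. In p400 knockdown these sizes were 0.152 and 0.175. Leaving out any array other than EGFP replicate 2 brought the count lower to 0, and leaving out EGFP replicate 4 made the count higher 2. With 1 array left out, 1089 to 1406 of all genes were lower and 2070 to 2440 higher. In the main fit 1759 were lower and 2572 higher. Without EGFP replicate 2 the 1 member lower was not Pola1, whose call was lost there too. Scaled to the array's median instead of its 75th percentile, 0 of 38 members were higher and 11 lower. Of all 17057 genes, 1432 were then higher and 4950 lower. The median of all genes was -0.20 and that of the members -0.24.

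The effects of the 2 knockdowns were then set against each other. For none of the 38 members did the p400 effect differ from the Tip60 effect at an adjusted p under 0.05, by a test on the moderated limma errors that took the lower degrees of freedom, where 2.27% of 16953 genes were above and 1.86% below. At an unadjusted p under 0.05 there were 2, Ccne1 and Rrm2, and the share of all genes at that level was not counted. With degrees of freedom by Welch and Satterthwaite the count was also 0 of 38, where 1243 of 16953 genes were above and 1262 below. The 95% intervals of the differences reached from -0.59 to 0.49 on the log2 scale, so differences of that size for single genes were within the error. Whether the EGFP RNA of the two-colour and single-colour arrays came from the same wells is not given in the sources used here.

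The regulators of entry into S phase held the largest rise. Ccne2, cyclin E2, partners Cdk2 at the G1/S transition, and its probe lies at chr4:11130171-11130230 (mm7, the build of the array files). That probe is shown because it carries the one rise found with both knockdowns.
Ccne2 probe: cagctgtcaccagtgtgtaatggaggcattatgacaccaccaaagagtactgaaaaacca
The Ccne2 log2 ratios of p400 knockdown over EGFP were 0.50, 0.80, 0.55 and 0.34 on replicates 1 to 4. All 4 ratios lay above 0 whichever dye carried the p400 RNA, and the fitted change was 0.55 ± 0.091 (SE, 1.46-fold, limma adjusted p = 0.00738). On the single-colour arrays, its log2 level relative to the array's 75th percentile was -0.31, -0.42 and -0.32 in Tip60 replicates 1, 2 and 4, against -0.69, -0.75, -1.01 and -0.94 in EGFP replicates 1 to 4. Every Tip60 array stood above every EGFP array, and the change was 0.50 ± 0.089 (1.41-fold, adjusted p = 0.00672). Its difference was 0.48 within slide 2 (2 Tip60 and 2 EGFP arrays) and 0.53 within slide 3 (1 and 2). A second Ccne2 probe gave 0.43 in p400 knockdown (adjusted p = 0.0188) and 0.45 in Tip60 knockdown (adjusted p = 0.0129). The p400 call held under all 13 alternatives, from 0.36 to 0.66. The Tip60 call was lost under 3 of 18, which scaled to the array median, used slide 2 alone or blocked by replicate number, with values from 0.29 to 0.55 over the 18.

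Ccne1, cyclin E1, the other partner of Cdk2 at this step, passed the threshold in p400 knockdown alone, and the difference between its effects did not pass (0.27, adjusted p = 0.129). On the 4 p400 arrays Ccne1 had log2 ratios over EGFP of 0.37, -0.013, 0.50 and 0.13. The ratio on replicate 2 was just below 0 and the others were above it, and the change of 0.25 ± 0.069 passed the threshold (limma adjusted p = 0.0367). A second probe at the same annotated position gave 0.25 (adjusted p = 0.0559). Its levels in Tip60 knockdown were 6.17, 6.23 and 6.28, against 6.20, 6.22, 6.27 and 6.33 in EGFP controls. The groups overlapped, and the difference was -0.026 ± 0.055 (adjusted p = 0.777). Both ratios with p400 RNA in Cy5 (replicates 1 and 3) lay above both with it in Cy3. The p400 call was lost under 8 of 13 alternatives, among them every omission of 1 array and the fit without a dye term. Median centring turned the value to -0.098.

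E2f1, a transcription factor that drives S phase genes, gave values that split by dye. Replicates 1 to 4 of p400 knockdown gave E2f1 log2 ratios over EGFP of 0.54, -0.11, 0.81 and -0.19. The ratios were above 0 where p400 RNA carried Cy5 (replicates 1 and 3) and below 0 where it carried Cy3 (replicates 2 and 4), while the fit with a dye term gave 0.26 ± 0.074 (limma adjusted p = 0.0383). The call was lost under 7 of 13 alternatives, among them the fit without a dye term and the omission of replicate 2, 3 or 4, and median centring turned the value to -0.018. A second E2f1 probe gave -0.023 (adjusted p = 0.872). In Tip60 knockdown the level was 1.07, 1.24 and 0.97, against 0.70, 0.73, 0.91 and 0.88 in EGFP controls. Each of the 3 Tip60 arrays was above the 4 EGFP arrays, at 0.28 ± 0.087, just short of the threshold (adjusted p = 0.0527), and the second probe gave 0.26 (adjusted p = 0.0484). Within slides the difference was 0.29 on slide 2 and 0.26 on slide 3.

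**Figure D2:**
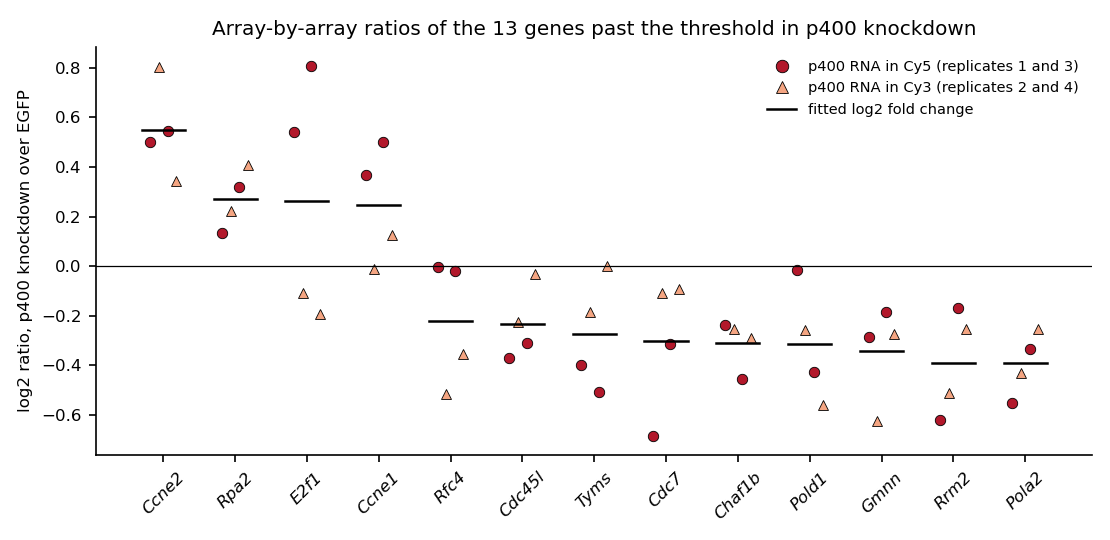
Log2 ratio of p400 knockdown over EGFP on each of the 4 arrays (vertical axis) for the 13 genes past the threshold, with circles for the arrays with p400 RNA in Cy5, triangles for those with it in Cy3, and a line for the fitted value. Ccne2 and Rpa2 lie above 0 on all 4 arrays, and E2f1 splits by dye. The 9 lower genes lie below 0 on all 4, but Rfc4 and Pold1 only barely on replicate 1, and Tyms on replicate 4.

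The licensing genes changed in 1 of 5 cases in p400 knockdown, a fall, where 14.9% of all genes were lower. None changed in Tip60 knockdown. The roles held 2 to 6 genes each, and no role was tested as a set. Gmnn, geminin, which binds Cdt1 and blocks relicensing in S phase, fell. In p400 knockdown, log2 ratios over EGFP for Gmnn were -0.29, -0.63, -0.19 and -0.27. All 4 ratios were below 0, with a change of -0.34 ± 0.082 (limma adjusted p = 0.0224), and the call was lost without replicate 1, 2 or 3. Its levels were 6.27, 6.31 and 6.45 in Tip60 knockdown, against 6.40, 6.52, 6.42 and 6.45 in EGFP controls. The groups overlapped, at -0.10 ± 0.063 (adjusted p = 0.277). The licensing factor Cdt1, its partner Cdc6, the origin recognition subunit Orc2l and Mcm10, which binds the loaded helicase, did not pass. Their changes ran from -0.13 (Cdt1) to 0.14 (Orc2l) in p400 knockdown and from -0.081 (Cdt1) to 0.099 (Orc2l) in Tip60 knockdown.

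None of the 6 subunits of the Mcm2 to Mcm7 helicase ring passed the limma threshold with either knockdown. Of all genes, 35.1% passed in p400 knockdown and 25.4% in Tip60 knockdown. In p400 knockdown they ran from -0.22 (Mcm5) to 0.096 (Mcm6), with adjusted p from 0.0650 (Mcm7) to 0.932 (Mcm3). In Tip60 knockdown they lay between -0.11 (Mcm2) and 0.0041 (Mcm6). Among them, Mcm7 was below 0 on all 4 p400 arrays, at -0.19, -0.21, -0.30 and -0.091. The Mcm5 ratios were 0.0010, 0.022, -0.39 and -0.50, so that 2 arrays were close to 0 and 2 well below it. Their 95% intervals reached down to -0.49 in p400 knockdown and -0.25 in Tip60 knockdown, so a fall of that size in a single gene lay within the error.

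Of the 3 genes of origin firing, 2 fell in p400 knockdown, where 14.9% of all genes were lower. Cdc7 is the kinase that phosphorylates the loaded Mcm ring. The Cdc7 log2 ratios of p400 knockdown over EGFP were -0.69, -0.11, -0.31 and -0.094 on replicates 1 to 4. All 4 ratios were below 0 and replicate 1 was far the lowest, with a change of -0.30 ± 0.083 (limma adjusted p = 0.0346). Without replicate 1 the call was lost, as it was without replicate 2 or 4 or without the dye term. Both ratios with p400 RNA in Cy5 (replicates 1 and 3) lay below both with it in Cy3. The 2 other Cdc7 probes gave -0.22 and -0.25 (adjusted p = 0.158 and 0.0695). Tip60 knockdown arrays had 1.001, 0.57 and 0.83, against 0.81, 1.01, 0.71 and 1.02 in EGFP controls. The groups overlapped, at -0.088 ± 0.12 (adjusted p = 0.651).

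Cdc45l encodes Cdc45, a part of the active helicase. On the 4 p400 arrays Cdc45l had log2 ratios over EGFP of -0.37, -0.23, -0.31 and -0.030. It was below 0 on all 4 arrays, nearest to it on replicate 4, and fell by 0.23 on the log2 scale (± 0.069 SE, limma adjusted p = 0.0433). Omission of any 1 of the 4 arrays, or of the dye term, lost the call. Both ratios with p400 RNA in Cy5 lay below both with it in Cy3. In Tip60 knockdown its levels were 0.79, 0.81 and 0.90, against 0.90, 0.69, 0.76 and 0.96 in EGFP controls, and the groups overlapped (0.0063 ± 0.078, adjusted p = 0.965). Dbf4, the activating subunit of Cdc7, was 0.014 in p400 knockdown and -0.059 in Tip60 knockdown, and passed in neither (adjusted p = 0.927 and 0.534).

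The 6 genes of DNA polymerases and primase all had fitted values below 0 in p400 knockdown. Of these 2 passed the threshold, where 14.9% of all genes were lower. Pola2, the B subunit of DNA polymerase alpha, which starts each strand together with primase, fell, with the lowest fitted value of the 38 members, next to that of Rrm2. Replicates 1 to 4 of p400 knockdown gave Pola2 log2 ratios over EGFP of -0.55, -0.43, -0.33 and -0.26. All 4 arrays were below 0, and the change was -0.39 ± 0.074 (limma adjusted p = 0.0109). Of 13 alternatives, only omission of replicate 2 lost the call (adjusted p = 0.0673). A second Pola2 probe gave -0.18 (adjusted p = 0.180), and another was too dim to test. In Tip60 knockdown the level was 1.07, 1.103 and 1.05, against 1.31, 1.11, 1.29 and 1.42 in EGFP controls. The 3 Tip60 arrays stood below the 4 EGFP arrays, narrowly so for EGFP replicate 2, and the change of -0.21 ± 0.077 did not pass (adjusted p = 0.0926).

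Pola1, the catalytic subunit of the same polymerase, was the only member that fell in Tip60 knockdown. Its level was 3.11, 3.10 and 3.16 in Tip60 replicates 1, 2 and 4, against 3.25, 3.36, 3.25 and 3.32 in EGFP replicates 1 to 4. All 3 Tip60 arrays lay below all EGFP arrays, with a difference of -0.17 ± 0.052 that only just passed (limma adjusted p = 0.0495). The call was lost under 12 of 18 alternatives, including the omission of any 1 of the 7 arrays and the slide as a block. Within slides it was -0.12 on slide 2 and -0.23 on slide 3. In p400 knockdown, log2 ratios over EGFP for Pola1 were 0.053, -0.42, -0.66 and -0.46. Replicate 1 was above 0 and the other 3 below it, and the value of -0.37 ± 0.12 did not pass (adjusted p = 0.0562).

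Pold1 is the catalytic subunit of DNA polymerase delta, the main polymerase of the lagging strand. The Pold1 log2 ratios of p400 knockdown over EGFP were -0.016, -0.26, -0.43 and -0.56 on replicates 1 to 4. The 4 ratios were below 0, replicate 1 barely so, at a change of -0.32 ± 0.097 (limma adjusted p = 0.0485). The call was lost without replicate 2, 3 or 4, and without the dye term. A second probe gave -0.22 (adjusted p = 0.0593). Tip60 knockdown gave 4.22, 4.40 and 4.26, against 4.41, 4.37, 4.60 and 4.39 in EGFP controls. One Tip60 array lay among the EGFP values, and the difference was -0.15 ± 0.079 (adjusted p = 0.219). The primase subunits Prim1 and Prim2 and Pole, the catalytic subunit of polymerase epsilon, ran from -0.23 to -0.084 in p400 knockdown and from -0.094 to 0.016 in Tip60 knockdown without passing.

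In the clamp and its loader, 1 of 5 genes passed in p400 knockdown, as lower, where 14.9% of all genes were lower. Rfc4, a small subunit of the clamp loader replication factor C, fell. On the 4 p400 arrays Rfc4 had log2 ratios over EGFP of -0.0020, -0.52, -0.019 and -0.36. The ratios were close to 0 where p400 RNA carried Cy5 and clearly below it where it carried Cy3, and the fit gave -0.22 ± 0.067 (limma adjusted p = 0.0448). Without the dye term, or without any 1 array, the call was lost. Its levels in Tip60 knockdown were 4.54, 4.48 and 4.66, against 4.58, 4.74 and 4.79 in EGFP replicates 1, 2 and 4, since the spot on replicate 3 carried an outlier flag and was left out. The groups overlapped, at -0.14 ± 0.081 (adjusted p = 0.263). Pcna, the sliding clamp, had p400 ratios of 0.28, -0.41, 0.63 and -0.17. They again lay above 0 with Cy5 and below with Cy3, and the fitted value was 0.080 (adjusted p = 0.513). Rfc2, Rfc3 and Rfc5 ran from -0.10 to 0.094 in p400 knockdown and, with Pcna, from -0.097 to 0.067 in Tip60 knockdown. The probe named Recc1, a synonym of Rfc1, gave -0.23 in p400 knockdown (adjusted p = 0.0993) and 0.12 in Tip60 knockdown (adjusted p = 0.182).

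Replication protein A coats single-stranded DNA at the fork. In p400 knockdown 1 of its 3 subunits rose, where 20.2% of all genes were higher. Replicates 1 to 4 of p400 knockdown gave Rpa2 log2 ratios over EGFP of 0.13, 0.22, 0.32 and 0.41. Rpa2 was above 0 on all 4 arrays, at 0.27 ± 0.073 (limma adjusted p = 0.0331), and a second probe gave 0.23 (adjusted p = 0.0372). The call was lost without replicate 2, 3 or 4, and with median centring the value was -0.049. In Tip60 knockdown it was 3.99, 4.05 and 4.03, against 3.93, 3.83, 3.89 and 3.89 in EGFP controls. Each Tip60 array was above each EGFP array, but the difference of 0.14 ± 0.049 did not pass (adjusted p = 0.0825), nor did that of the second probe (0.17, adjusted p = 0.0589). The subunits Rpa1 and Rpa3 were -0.054 and -0.12 in p400 knockdown and -0.097 and 0.060 in Tip60 knockdown, and passed in neither.

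**Figure D3:**
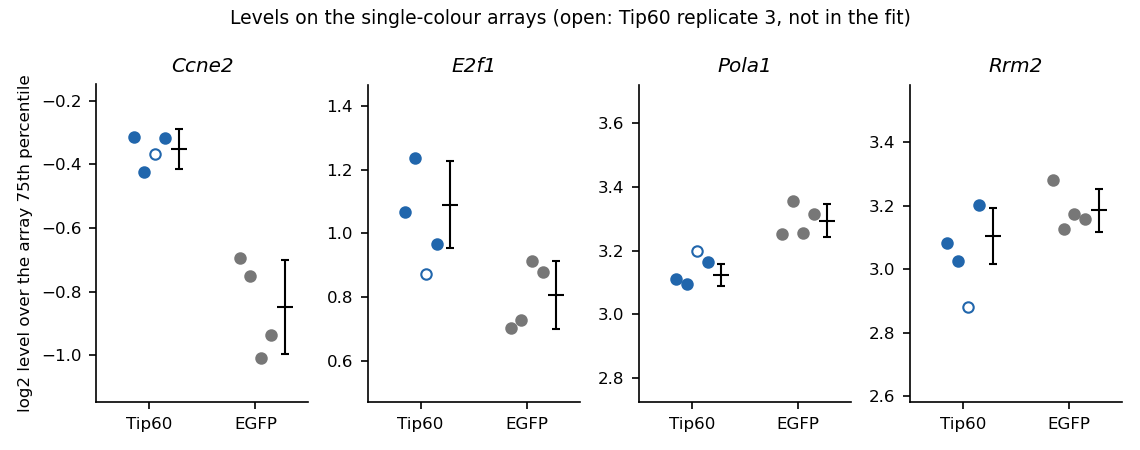
Log2 level relative to the array's 75th percentile (vertical axis, 1 log2 unit in each panel) of Ccne2, E2f1, Pola1 and Rrm2 on Tip60 knockdown arrays (left) and EGFP arrays (right), with a point per array and the mean with its SD over 3 Tip60 and 4 EGFP arrays. The Tip60 arrays in the fit lie above all EGFP arrays for Ccne2 and E2f1 and below all of them for Pola1, and they overlap for Rrm2.

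Nucleotide supply showed 2 falls among 3 genes in p400 knockdown, where 14.9% of all genes were lower. Rrm2, the small subunit of ribonucleotide reductase, whose level is known to peak in S phase, fell. In p400 knockdown, log2 ratios over EGFP for Rrm2 were -0.62, -0.51, -0.17 and -0.26. All 4 arrays were below 0, lowest on replicates 1 and 2, at -0.39 ± 0.097 (limma adjusted p = 0.0260), and the call was lost without replicate 1 or 2. Its levels were 3.08, 3.03 and 3.20 in Tip60 knockdown, against 3.28, 3.13, 3.17 and 3.16 in EGFP controls. The groups overlapped, at -0.081 ± 0.065 (adjusted p = 0.415). Rrm1, the large subunit, was -0.16 in p400 knockdown (adjusted p = 0.100) and -0.050 in Tip60 knockdown (adjusted p = 0.489).

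Tyms, thymidylate synthase, which makes the thymidine nucleotide, fell in p400 knockdown. The Tyms log2 ratios of p400 knockdown over EGFP were -0.40, -0.19, -0.51 and -0.0011 on replicates 1 to 4. All 4 ratios were below 0, replicate 4 barely so, and the change was -0.27 ± 0.070 (limma adjusted p = 0.0276). Both ratios with p400 RNA in Cy5 (replicates 1 and 3) lay below both with it in Cy3. The call was lost without replicate 2, 3 or 4, and without the dye term. Tyms had 3 probes, and the brighter 2 are shown because they gave like values from overlapping sequence. They share a run of 23 bases, in capitals, and lie at chr5:29093977-29094036 and chr5:29093997-29094890 (mm7, the second over a span longer than the probe).
Tyms probe, brightest: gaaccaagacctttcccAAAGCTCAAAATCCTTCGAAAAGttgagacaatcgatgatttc
Tyms probe, second: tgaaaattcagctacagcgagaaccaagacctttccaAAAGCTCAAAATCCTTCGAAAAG
The second probe gave -0.28 in p400 knockdown (adjusted p = 0.0233) and is not independent of the brightest. The dimmest probe gave -0.038 (adjusted p = 0.686). In Tip60 knockdown the brightest probe stood at 4.93, 4.84 and 5.06, against 5.09, 5.21, 5.03 and 5.14 in EGFP controls. One Tip60 array lay within the EGFP range, and the difference was -0.17 ± 0.073 (adjusted p = 0.131).

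Of the subunits of chromatin assembly factor 1, which lays histones onto new DNA, Chaf1b fell in p400 knockdown. On the 4 p400 arrays Chaf1b had log2 ratios over EGFP of -0.24, -0.26, -0.46 and -0.29. Chaf1b was below 0 on all 4 arrays, at -0.31 ± 0.070 (limma adjusted p = 0.0191), and lost its call without replicate 2, 3 or 4. Replicates 1 to 4 of p400 knockdown gave Chaf1a log2 ratios over EGFP of 0.27, 0.015, 0.088 and -0.20. Chaf1a lay on both sides of 0 and did not pass (0.043 ± 0.075, adjusted p = 0.686). In Tip60 knockdown Chaf1b was at 4.37, 4.63 and 4.60, against 4.67, 4.63, 4.82 and 4.57 in EGFP controls, and Chaf1a at 3.05, 3.05 and 3.04, against 2.95, 2.97, 3.12 and 3.14. Both genes overlapped between the groups, at -0.14 ± 0.089 and 0.0017 ± 0.065 (adjusted p = 0.297 and 0.989).

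Neither gene of Okazaki fragment maturation passed. Fen1, the flap endonuclease, and Lig1, the DNA ligase, join the pieces of the lagging strand. In p400 knockdown, log2 ratios over EGFP for Fen1 were -0.070, 0.12, 0.11 and 0.13. The Lig1 log2 ratios of p400 knockdown over EGFP were 0.0026, 0.36, 0.036 and -0.034 on replicates 1 to 4. The changes were 0.071 ± 0.068 and 0.092 ± 0.085 (limma adjusted p = 0.454 and 0.438). Fen1 was at 3.41, 3.34 and 3.37 in Tip60 knockdown, against 3.21, 3.11, 3.10 and 3.44 in EGFP controls, and Lig1 at 5.42, 5.39 and 5.29, against 5.15, 5.37, 5.26 and 5.40. Both sets overlapped, at 0.16 ± 0.091 and 0.073 ± 0.076 (adjusted p = 0.247 and 0.538).

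Related genes outside the 38 were read from lists of other replication, nucleotide, G1/S and checkpoint genes. Of 28 further replisome genes tested, 3 were higher (10.7%) and 3 lower (10.7%) in p400 knockdown, where 20.2% and 14.9% of all genes were. In Tip60 knockdown 1 was higher (3.57%) and none lower, where 15.1% and 10.3% of all genes were. Pole4, a histone-fold subunit of polymerase epsilon, rose with both, by 0.72 ± 0.070 and 0.33 ± 0.048 (limma adjusted p = 0.00180 and 0.00268). Top1, the type I topoisomerase, rose by 0.51 ± 0.12 in p400 knockdown and was -0.14 ± 0.047 in Tip60 knockdown, a difference of effects that passed (0.64, adjusted p = 0.0493). Pold2, the second subunit of polymerase delta, was -0.50 ± 0.080, the topoisomerase Top2a -0.40 ± 0.074, and Orc3l of the origin recognition complex -0.38 ± 0.068 in p400 knockdown. The histone chaperone Asf1a was 0.27 ± 0.066.

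Of 14 genes of nucleotide metabolism and S phase, none was higher and 4 were lower (28.6%) in p400 knockdown, where 20.2% and 14.9% of all genes were. In Tip60 knockdown none was higher and 1 was lower (7.14%), where 15.1% and 10.3% of all genes were. The gene named 2810417H13Rik, which encodes the PCNA-associated factor Pclaf, fell with both, at -0.67 ± 0.095 and -0.48 ± 0.059 (limma adjusted p = 0.00474 and 0.00128). In p400 knockdown, Usp1, a deubiquitinase that acts on the clamp, was -0.38 ± 0.084 and Atad2, a chromatin ATPase, -0.26 ± 0.080. Among 7 checkpoint genes, 1 was higher (14.3%, against 20.2% of all genes) and none lower in p400 knockdown, the clamp-loading protein Rad17 at 0.37 ± 0.078. In Tip60 knockdown none was higher and 2 were lower (28.6%, against 10.3% of all genes), the kinases Chek2 at -0.24 ± 0.072 and Wee1 at -0.22 ± 0.056.

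Genes of G1 and G1/S control held the largest single changes among these lists. Of 28 tested, 4 were higher (14.3%) and 10 lower (35.7%) in p400 knockdown, where 20.2% and 14.9% of all genes were. In Tip60 knockdown 5 were higher (17.9%) and 9 lower (32.1%), where 15.1% and 10.3% of all genes were. The cyclin-dependent kinase inhibitor Cdkn1c rose by 1.58 ± 0.068 in p400 and 0.33 ± 0.055 in Tip60 knockdown, and its effects differed (limma-based difference 1.24, adjusted p = 0.0215). The D-type cyclin Ccnd2 rose by 1.27 ± 0.13 and 0.37 ± 0.065, and these effects differed too (0.90, adjusted p = 0.0356). Ccnd1, which binds Cdk4 and Cdk6, was -0.91 ± 0.074 in p400 and -0.62 ± 0.055 in Tip60 knockdown. Cdk6 itself was -0.66 ± 0.066 and -0.49 ± 0.051. In p400 knockdown the inhibitor Cdkn2b rose by 0.78 ± 0.11 and the inhibitor Cdkn1b fell, at -0.66 ± 0.087. In Tip60 knockdown the retinoblastoma family gene Rbl2 fell, at -0.55 ± 0.071, and Ccnd3 rose by 0.32 ± 0.095.

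**Figure D4:**
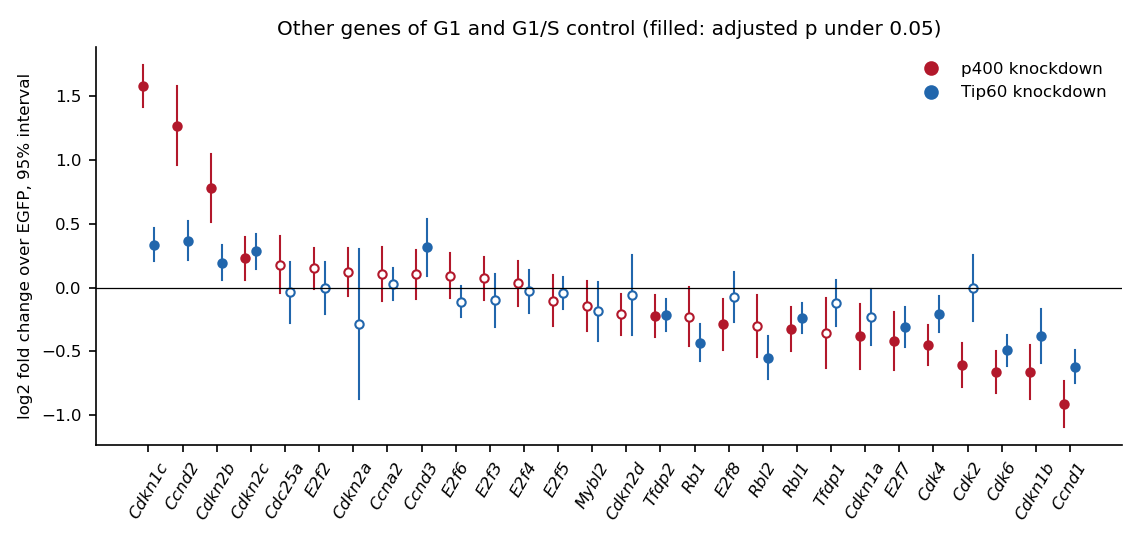
Log2 fold change over EGFP (vertical axis) of the 28 other genes of G1 and G1/S control in p400 knockdown (red, left of each pair) and Tip60 knockdown (blue, right), with bars for the 95% interval and filled points for an adjusted p under 0.05. Cdkn1c and Ccnd2 stand highest in p400 knockdown and Ccnd1 lowest in both.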

How the data were processed

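Each array had 43379 spots, of which 1639 were controls. Per the file headers, Agilent Feature Extraction 9.5.1.1 gave each spot's mean and background intensity, a processed intensity and, on two-colour arrays, a log10 ratio. The steps behind the log2 values deposited in the series matrix are not given in the sources used here. From these, p400 arrays were corrected with normexp (offset 50), normalized by loess and fitted in limma 3.58.1 (R 4.3.3) with a dye term. The single-colour values were log2 processed signal minus the array's 75th percentile. A probe was tested if at least 3 arrays of 1 RNA showed it well above background. Adjusted p values are Benjamini-Hochberg over all genes tested, two-sided. The number of arrays limits the precision. The steps were tested on simulated data. Same-numbered Tip60 and EGFP arrays had deviations from their group means with r of -0.22, -0.44 and -0.0093. Each such pair lay on different slides, so these values cannot settle whether the numbers pair the samples. Pairs on the same slide ran from -0.40 to 0.74. The main Tip60 fit had no slide or replicate term, and with a replicate block the Ccne2 and Pola1 calls were lost. All members are reported by role, with array values for those past the threshold or in roles of at most 2 genes. Of the other lists, up to 3 called genes per direction are named. The members and lists were chosen with earlier results of these data known.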

Additional observations from a re-analysis of the deposited data

Results flagged for a closer look

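In 5 of the 113 sets of 4 values examined, 1 array stood apart from the other 3, and chance sets apart about 1 in 20. Cdt1 had a log2 ratio of -0.47 on p400 replicate 3, where the other arrays ran from -0.071 to 0.000098. Fen1 stood at -0.070 on p400 replicate 1, where the others ran from 0.11 to 0.13. Chaf1a had a log2 level of 2.91 on Tip60 replicate 3, which no fit of the main comparison used, where the other Tip60 arrays ran from 3.04 to 3.05. Cdc6 stood at 2.34 on EGFP replicate 1, where the other EGFP arrays ran from 2.25 to 2.26. Rrm1 was at 4.32 on the same EGFP array, where the others ran from 4.40 to 4.41. On Tip60 replicate 3, the array left out of the comparison, Ccne2 was at -0.37, above the EGFP arrays, which ran from -1.01 to -0.69.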

How the results depend on the processing

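Every representative probe was well above background on every array of the fits. In p400 knockdown, the count of members higher (4) was 1 with median centring, LogRatio as deposited and arrays scaled to a common spread. Over all genes (3797) the count was then 2899, 3923 and 1860. With no dye term the members' count was 2 and that over all genes 3378. Without 1 replicate these were 1 to 3 and 1949 to 3265. The count lower (9) was 29 with median centring, 2 with scaling, 5 with no dye term and 0 to 6 without 1 replicate. Over all genes (2794) it was 6729, 549, 2472 and 1229 to 2534 under the same settings. The members' median log2 fold change (-0.091) was -0.42 with median centring and -0.14 to -0.050 without 1 replicate. Rpa2, Ccne1 and E2f1 reversed with median centring, to -0.049, -0.098 and -0.018. In Tip60 knockdown, the count of members higher (1) was 2 with quantile normalization, with the series matrix and with a stricter filter. Over all genes (2572) the count was then 1717, 1687 and 2261. The members' count was 0 with median scaling, within slide 2 and with the replicate block, and over all genes 1432, 1354 and 1490. Without 1 replicate the members' count was 1 to 2, and over all genes 2070 to 2440. The count lower (1) was 11 with median scaling, 2 with replicate 3 included with array weights, and 0 to 1 without 1 replicate. Over all genes (1759) it was 4950, 2299 and 1089 to 1406. Members lower were 0 with no filter, every probe kept, the slide as a block, slide 2 alone and the replicate block. Over all genes the count was then 796, 2397 (by probe), 1979, 427 and 317. The members' median log2 fold change was -0.24 with median scaling, -0.058 with replicate 3 included, and -0.049 to -0.019 without 1 replicate. No member's effects differed between the knockdowns under any setting tried. Without p400 replicate 3, however, 0 of all 16912 genes passed that test, so the setting says nothing of the members. Without p400 replicate 1 it called 110 of 16861 genes above and 55 below. The cause of these shifts was not tested.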

Other observations

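Tip60 replicate 3, the array the submitters left out, entered the comparison of the members in alternatives only. Set against the mean of the 4 EGFP arrays, its median over the 38 members was -0.12 on the log2 scale, with 9 members above 0, from -0.43 to 0.48. The same median was -0.021, -0.043 and -0.0029 on Tip60 replicates 1, 2 and 4, with 16, 13 and 19 members above 0. On that array Ccne2 was at -0.37, E2f1 at 0.87, Pola1 at 3.20 and Rrm2 at 2.88, relative to the array's 75th percentile.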
